A study of Mus musculus with 9 samples.

Results

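The interferon-stimulated genes described here are a list of 45 mouse genes known for being switched on by interferon, chosen by name. The deposited table held 43 of them among its 19435 genes, and Mx1 and Mx2 are not analysed here. Poly-A RNA was sequenced from 9 mouse libraries, all labelled oviduct. They are 3 oviducts of genotype Dicer1+/D1693N (oviducts 1 to 3), 2 oviducts of genotype Dicer1+/+ (oviducts 4 and 5) and 4 primary tumors of genotype Dicer1ko/D1693N (tumors 1 to 4). Dicer1 encodes an RNase that cuts microRNA precursors, and D1693N names a change in that protein. All animals were untreated per the labels, and Dicer1+/D1693N oviducts carry the D1693N allele that the tumors also carry. Strain, age, any Cre driver and whether each library came from a separate animal are not given in the sources used here, so p-values measure the spread between these libraries, which may be partly technical.

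Interferons are secreted proteins that cells release when sensors detect foreign or misplaced nucleic acid. Type I and type III interferons act through JAK kinases on a complex that holds STAT2 and IRF9 and binds the interferon-stimulated response element (ISRE) in promoters, and interferon gamma acts on genes with the gamma-activated site (GAS). The genes switched on include the sensors and factors of the pathway itself, enzymes that attack viral RNA or proteins, ubiquitin-like conjugation, and families of GTPases. The oviduct epithelium has its own constitutive type I interferon, interferon epsilon, encoded by Ifne.

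Libraries held 8504993 to 12526078 reads. Genes without a read numbered 595 to 877 in the oviducts and 1369 to 3053 in the tumors, the most in tumor 3. The deposited values are on a log2 scale, and normalized counts (reads divided by a size factor for each library) were recovered from them. The limit that a count of 0 allows, 3 reads, came to 3.35 normalized counts or less in oviducts and 3.41 or less in tumors, for counting error only. Dicer1 itself was at 1086 ± 131 normalized counts in oviducts (SD, n = 5) and 995 ± 396 in tumors (SD, n = 4). This difference did not pass the test (log2 change -0.21 ± 0.25, SE, adjusted p = 0.568), and the total does not separate alleles. Tumors 1 to 4 had 1282.9, 741.5, 1379.2 and 576.3 normalized counts of Dicer1, against 903.9 to 1236.8 in the oviducts. Tumors 1 and 3 were thus above and tumors 2 and 4 below every oviduct, and a link to the interferon-stimulated genes was not tested. The oviduct secretory gene Ovgp1 was at 78144 to 150620 normalized counts in the oviducts and at 8071, 11678, 8061 and 112 in tumors 1 to 4, and the ciliated-cell factor Foxj1 at 4184 to 6649.9 and 244, 15.9, 59.7 and 12.6, so both oviduct markers were low in all 4 tumors.

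Interferon-stimulated genes did not move in 1 direction between oviducts and tumors: the 4 tumors lay on opposite sides of the oviducts. For most of the 43 genes tumors 2 and 4 were high and tumors 1 and 3 were low. The median log2 difference of the 43 genes from the mean of the 5 oviducts was -0.91 in tumor 1, 0.78 in tumor 2, -0.90 in tumor 3 and 0.63 in tumor 4. Over all 19435 genes the same medians lay between -0.16 and -0.05. In the 5 oviducts the genes' medians lay between -0.18 and 0.14.

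Tumors 2 and 4 were the 2 highest of the 4 tumors in 39 of the 43 genes (90.7%), against 22.1% of all genes and 23.7% of the 12232 genes within the same range of mean level. The 4 exceptions were Rsad2, Cmpk2, Iigp1 and Gbp4. In 20 of the 43 genes (46.5%) tumors 2 and 4 were above every oviduct while tumors 1 and 3 were below every oviduct, a pattern held by 233 of all 19435 genes (1.2%). These 20 genes made up 8.58% of the 233, while the 43 genes make up 0.221% of the table. They were the sensors Ddx58, Dhx58 and Zbp1, the factors Stat2, Irf7 and Irf9, the RNA-binding and RNA-degradation genes Ifit1, Ifit3, Oas1a, Oas2 and Oasl1, the conjugated protein Isg15, the GTPases Ifi47, Gbp2, Gbp3 and Gbp7, and Ifi35, Ifi44, Rtp4 and Parp14. For some of them the margin was small: the smaller distance from the oviducts was 0.023 log2 units for Isg15 and 0.024 for Ddx58, against 0.924 for Oas1a. This split among tumors was noticed in these values and carries no test.

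**Figure D1:**
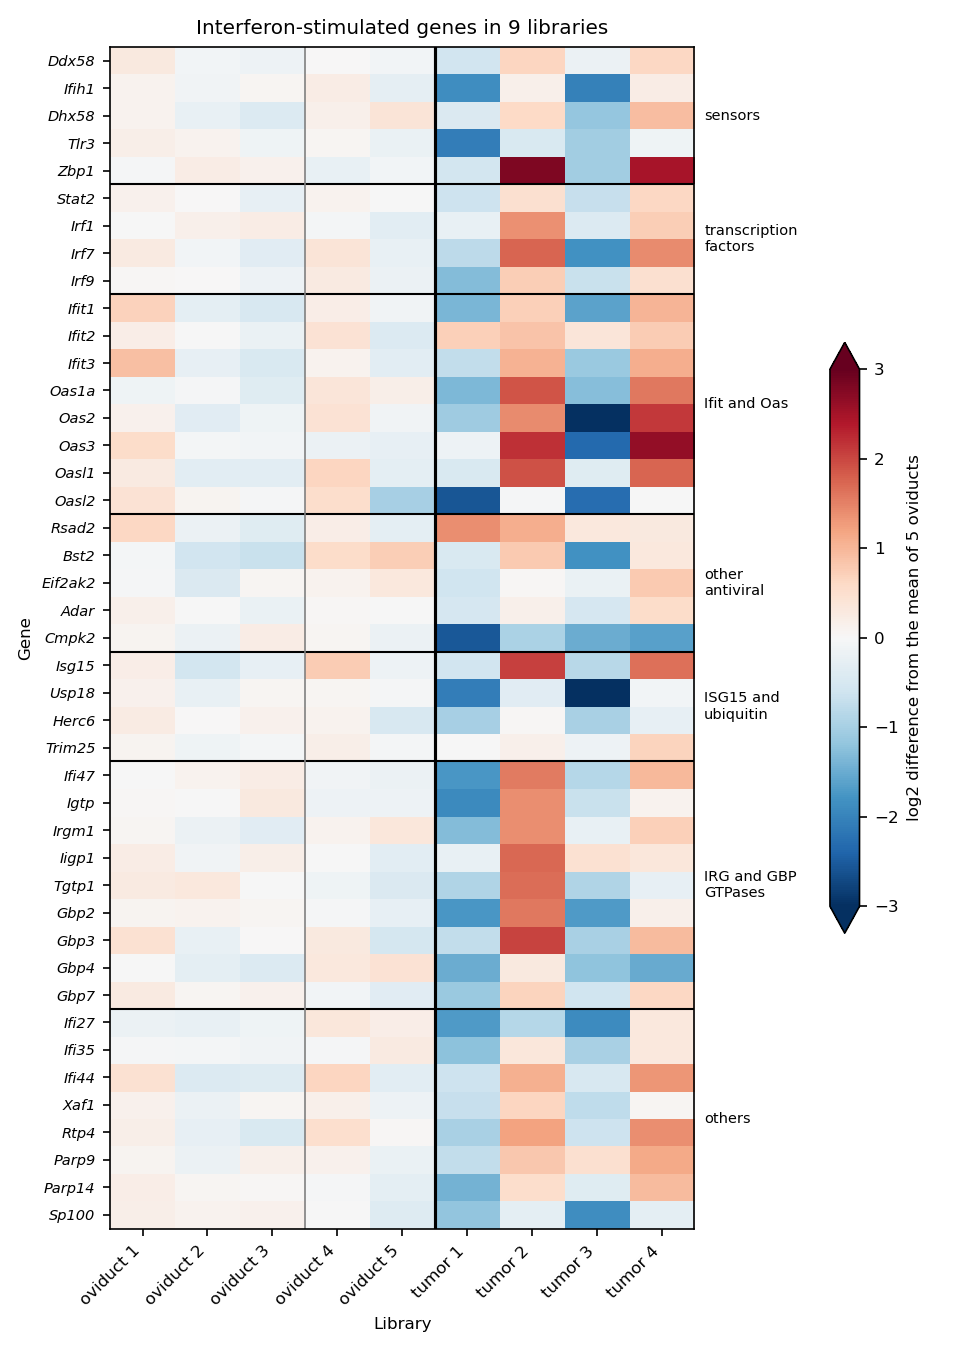
Heat map of the log2 difference of each of 43 interferon-stimulated genes (rows, by role) from its mean over 5 oviducts, in each of 9 libraries (columns); the gray line separates the oviduct genotypes and the heavy line the oviducts from the tumors. Colors are limited to 3 log2 units on either side, and most rows are red in tumors 2 and 4 and blue in tumors 1 and 3.

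Tumor 1 was below every oviduct in 36 of the 43 genes and above every oviduct in 2, and tumor 3 was below in 37 and above in 2. Tumor 2 was above every oviduct in 31 genes and below in 4, and tumor 4 above in 30 and below in 2. Over all genes each tumor was above every oviduct in 32.6% to 33.9% and below in 35.9% to 40% of genes. The median range over the 4 tumors was 2.19 on the log2 scale for the 43 genes and 1.03 for all genes, while the median range over the 5 oviducts was 0.61 and 0.57. The range over the tumors reached 2 log2 units in 24 of the 43 genes (55.8%), against 16.2% of all genes. The box plot by library shows the spread among tumors as shifts of most of the 43 genes, up in tumors 2 and 4 and down in tumors 1 and 3.

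**Figure D2:**
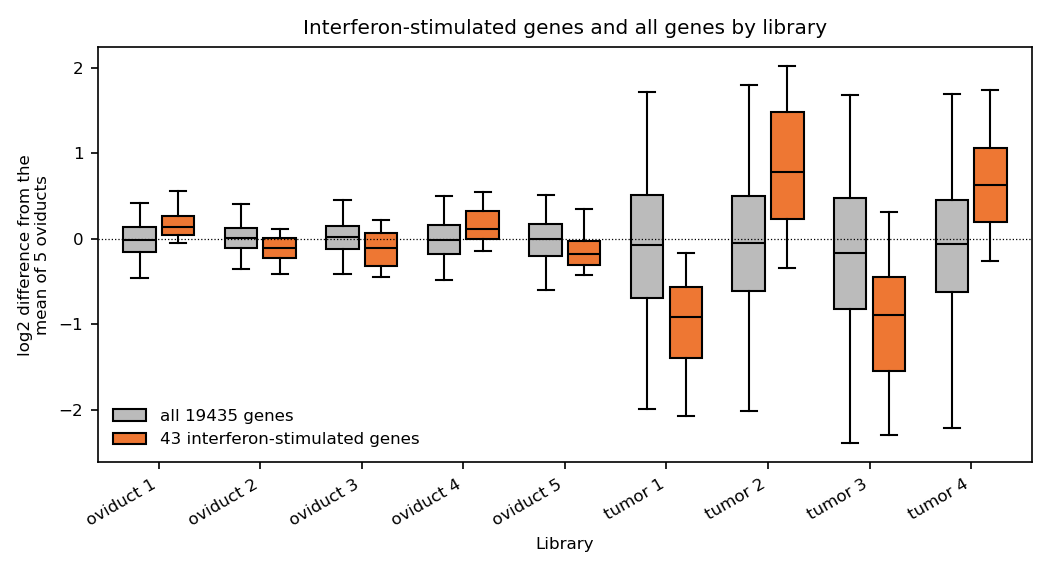
Box plot of the log2 difference from the mean of 5 oviducts (vertical axis) in each library (horizontal axis), for all 19435 genes (gray) and 43 interferon-stimulated genes (orange); boxes span the quartiles with the median as a line, and whiskers end at the 5th and 95th percentiles. The median of the 43 genes is 0.78 in tumor 2 and 0.63 in tumor 4, but -0.91 in tumor 1 and -0.90 in tumor 3.

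Some of these genes' promoters hold ISRE or GAS letters. The genes were chosen by name as switched on by interferon, which acts through such letters, so the shares below are no independent finding. RefSeq promoter windows (GRCm38.p6, from 250 bases before to 50 after each gene's start) matched 33 of the 43 genes. The ISRE was searched on both strands as GAAA, any 2 bases, GAAA, with overlapping matches counted. It was found in 17 of the 33 (51.5%) and in 1079 of 27025 genes with a window (3.99%). More than 1 position was found in 7 of the 33 (21.2%) and in 72 of all genes (0.266%). GAS letters (TTC, any 3 bases, GAA) were in 10 of the 33 (30.3%) and in 9.55% of all genes. A match describes letters and not a bound site. The 17 genes with ISRE letters had a median range over the tumors of 2.60 on the log2 scale and the 16 without had 1.69, with wide overlap (1.11 to 4.96 and 0.48 to 3.56). The 10 genes with no window, in neither group, include Oas2, Usp18 and Zbp1, at ranges of 5.12, 4.05 and 3.84.

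The 7 promoters with more than 1 ISRE position are printed below as the densest matches, with Rsad2 as the 1 gene with ISRE letters whose 2 highest tumors were not tumors 2 and 4. With or without the letters most genes had tumors 2 and 4 highest: 16 of the 17 genes with them, 15 of the 16 without and 8 of the 10 with no window. Each is read 5′ to 3′ on the gene's strand with 15 bases on either side of the outermost match, and capitals mark the ISRE letters, which read GAAA on the gene's strand or TTTC where the match is on the other strand. Positions count from the RefSeq start. The Isg15 window is chr4:156200860-156200911, minus strand, with letters at -78 to -57. The Ifit1 window is chr19:34640770-34640828, plus strand, -104 to -76. The Ifit3 window is chr19:34583358-34583431, plus strand, -156 to -113. The Oas1a window is chr5:120907515-120907560, minus strand, -20 to -5. The Bst2 window is chr8:71537572-71537617, minus strand, -130 to -115. The Irgm1 window is chr11:48871420-48871465, minus strand, -30 to -15. For Gbp3 it is chr3:142559984-142560029, plus strand, -45 to -30. For Rsad2, with a single match, it is chr12:26456548-26456587, minus strand, -120 to -111.
Isg15: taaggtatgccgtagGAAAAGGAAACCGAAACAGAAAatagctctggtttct
Ifit1: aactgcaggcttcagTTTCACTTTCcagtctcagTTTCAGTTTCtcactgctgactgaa
Ifit3: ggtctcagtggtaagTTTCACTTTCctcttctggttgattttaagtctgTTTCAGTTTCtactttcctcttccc
Oas1a: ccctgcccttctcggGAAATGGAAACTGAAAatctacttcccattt
Bst2: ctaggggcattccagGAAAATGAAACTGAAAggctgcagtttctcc
Irgm1: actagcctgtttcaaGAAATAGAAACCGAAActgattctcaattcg
Gbp3: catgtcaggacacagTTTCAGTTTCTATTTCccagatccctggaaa
Rsad2: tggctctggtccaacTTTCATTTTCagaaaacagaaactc

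The comparison of tumors with oviducts used the moderated test of limma on the log2 values of all 19435 genes. To be called, a gene needed both a Benjamini-Hochberg adjusted p under 0.05 and a log2 change of 1 or more in size. None of the 43 genes was called higher and 1, Cmpk2, was called lower, while 6.53% of all genes were called higher and 12.1% lower. By the adjusted p alone 1 gene was higher (Ifit2) and 2 were lower (Cmpk2 and Sp100), against 12.6% and 18.5% of all genes. At an unadjusted p under 0.05, 2 were higher (Ifit2 and Rsad2) and 6 lower (Cmpk2, Usp18, Sp100, Tlr3, Gbp4 and Ifi27), against 42.1% of all genes in either direction. With limma-voom on the recovered reads 0 were called higher and 2 lower (Cmpk2 and Tlr3). Log2 changes ran from -1.66 for Usp18 to 0.92 for Zbp1, 19 positive and 24 negative, with a median of -0.05, against -0.05 over all genes. That median turned on single tumors: it was 0.23 without tumor 1, -0.35 without tumor 2, 0.21 without tumor 3 and -0.28 without tumor 4, while that of all genes ran from -0.07 to -0.03, and with weights for library quality it was 0.34. Per kilobase of exon, the mean level over the 9 libraries ran from 11.3 normalized counts for Tgtp1 to 1291 for Bst2.

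Cmpk2, a mitochondrial nucleotide kinase gene, had 376, 308, 412, 366 and 309 normalized counts in oviducts 1 to 5 and 44.7, 173, 112 and 101 in tumors 1 to 4. All 4 tumors lay below all 5 oviducts, tumor 1 lowest. Its level fell from 354 ± 45.1 (SD, n = 5) to 107 ± 52.4 (SD, n = 4), a log2 change of -1.65 ± 0.28 (SE) at an adjusted p of 0.00155. It was the 1 gene of the 43 whose tumors were all below the oviducts (16.8% of all genes), and none had all tumors above (10.8% of all genes).

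Rsad2, which encodes the antiviral radical enzyme viperin, lies next to Cmpk2, at chr12:26442746-26456452 on the minus strand, with Cmpk2 at chr12:26469204-26479837 on the plus strand (GRCm38). Its normalized counts were 199, 106, 90.5, 142 and 96 in the oviducts and 355, 284, 156 and 154 in the tumors. Here tumor 1 was highest, tumors 1 and 2 were above every oviduct, and tumors 3 and 4 were within the oviduct range. The log2 change was 0.78 ± 0.30 (SE, adjusted p = 0.0743), so it missed the threshold, and the neighboring genes had changes of opposite sign.

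Ifit2 belongs to the Ifit family, whose proteins bind viral RNA. Its normalized counts were 173, 148, 126, 209 and 108 in oviducts 1 to 5 and 257, 285, 198 and 268 in tumors 1 to 4. Tumors 1, 2 and 4 were above every oviduct and tumor 3 was just under oviduct 4, so tumors 1 and 3 were not low here. It had the smallest range over the tumors of the 43 genes, 0.48 log2 units, with a log2 change of 0.67 ± 0.21 (SE, adjusted p = 0.0322), below the log2 minimum of 1.

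**Figure D3:**
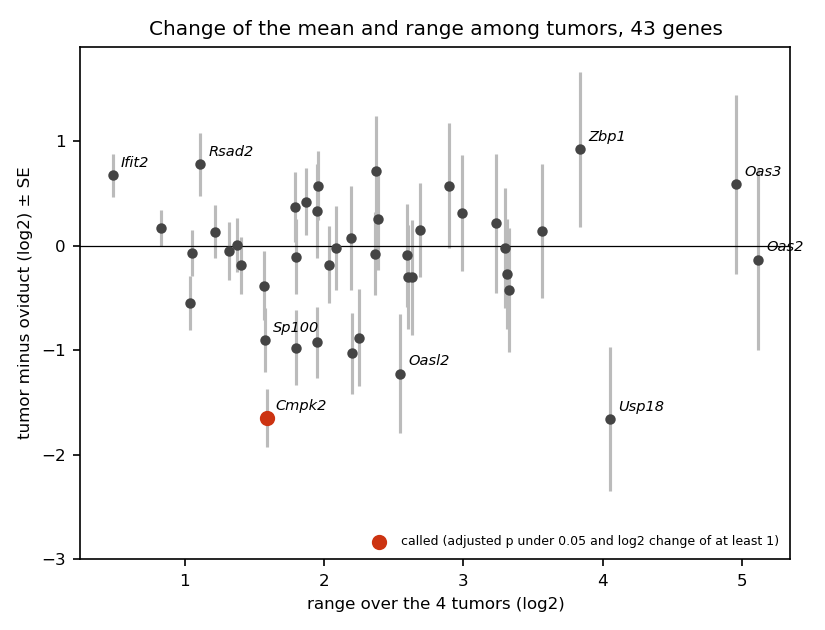
Scatter plot of 43 interferon-stimulated genes, with the range over the 4 tumors (horizontal axis, log2) against the tumor minus oviduct change (vertical axis, log2, bars are the SE from limma). Cmpk2 in red is the called gene; Oas2 and Oas3 have the widest ranges over the tumors with changes of -0.13 and 0.59, and Ifit2 has the narrowest.

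Among the 5 sensors, none was called, and tumors 2 and 4 were the 2 highest tumors in all 5. Ddx58, which encodes the RNA sensor RIG-I, had 584, 445, 424, 477 and 443 normalized counts in the oviducts and 311, 751, 417 and 741 in the tumors. Every oviduct was exceeded by tumors 2 and 4 and lay above tumors 1 and 3, the last by a small margin (log2 change 0.13 ± 0.25, SE, adjusted p = 0.727). Zbp1, a sensor of Z-form nucleic acid that can start necroptosis, had 82.6, 103, 95.5, 71.5 and 79.3 in the oviducts and 52.4, 720, 32.7 and 565 in the tumors. The pair of high tumors was several times above every oviduct and the pair of low tumors below, a range of 3.84 log2 units, and the change of 0.92 ± 0.74 (log2, SE) had an adjusted p of 0.377. Tlr3, the endosomal receptor for double-stranded RNA, had 414, 393, 331, 379 and 314 in the oviducts and 70.9, 261, 166 and 331 in the tumors. Its tumors 1, 2 and 3 were below every oviduct and tumor 4 was within their range, with a change of -0.93 ± 0.34 (log2, SE, adjusted p = 0.0612). Ifih1 and Dhx58, which encode MDA5 and LGP2, ranged over 75.4 to 434 and 47.3 to 264 normalized counts in the tumors and 301 to 433 and 92.5 to 175 in the oviducts.

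None of the 4 transcription factors was called, and for each of them tumors 2 and 4 were the highest tumors. Irf9, which encodes a DNA-binding part of the complex at the ISRE, had 628, 613, 552, 744 and 540.4 normalized counts in the oviducts and 238, 1042, 377 and 857 in the tumors. Its tumors split to both sides of all oviducts (log2 change -0.18 ± 0.37, SE, adjusted p = 0.743). Irf1, a factor induced strongly by interferon gamma, had 467, 528, 548, 452 and 374 in the oviducts and 400.1, 1250.3, 346 and 804 in the tumors. Tumors 2 and 4 were above every oviduct, tumor 3 was below, and tumor 1 was within the oviduct range (0.37 ± 0.33, log2, SE, adjusted p = 0.432). Irf7, the factor that amplifies type I interferon genes, had 169.9, 1069, 72.1 and 851 in the tumors against 237 to 404 in the oviducts, and Stat2 had 293, 654, 277 and 721 against 384 to 507. Both again had tumors 2 and 4 above and tumors 1 and 3 below every oviduct.

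The Ifit and Oas families held the genes with the widest spread over the tumors, Oas2 and Oas3, and the gene with the narrowest, Ifit2. OAS proteins make 2-5 oligoadenylates, which activate the RNA-cutting enzyme RNase L. Oas2 had 232, 162, 190.1, 291 and 192 normalized counts in the oviducts and 89.3, 596, 11.3 and 976 in the tumors. Tumor 4 was highest and tumor 3 lowest, a range of 5.12 log2 units, the largest of the 43 genes, and the mean change of -0.13 ± 0.87 (log2, SE, adjusted p = 0.925) averages tumors on both sides. Oas3 had 59.2, 32.2, 31.8, 29.1 and 26.8 in the oviducts and 29.1, 227, 0 and 313 in the tumors. No read was counted for it in tumor 3, which allows up to 3.38 normalized counts, while tumors 2 and 4 exceeded every oviduct (0.59 ± 0.86, log2, SE, adjusted p = 0.646). The Oas3 change depends on single tumors, since it was 1.56 without tumor 3 and -0.10 without tumor 4.

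Oasl1, which in mouse restrains translation of Irf7, had 53.6, 29.9, 29.9, 73.9 and 30.1 normalized counts in the oviducts and 25.2, 208, 28.1 and 182 in the tumors. Tumors 2 and 4 were above every oviduct, and tumors 1 and 3 just below (log2 change 0.71 ± 0.53, SE, adjusted p = 0.343). Its relative Oasl2 had 1817, 1417, 1317, 1932 and 666 in the oviducts and 211, 1306, 258 and 1330.3 in the tumors. Here the high tumors were within the oviduct range and the low tumors under it, with oviduct 5 apart from the other oviducts (-1.23 ± 0.57, log2, SE, adjusted p = 0.128). Ifit3 had 288, 119, 98.5, 156 and 112 in the oviducts and 77.7, 320.2, 56.3 and 327 in the tumors. Its oviduct 1 was near the high tumors, and the change was 0.07 ± 0.50 (log2, SE, adjusted p = 0.932). Ifit1 and Oas1a gave 58.3, 315, 47.3 and 393 and 33, 470.1, 34.9 and 376 in the tumors, against 125 to 306 and 82.6 to 150.1 in the oviducts. Oas1a and Ifit3 share 57.6% and 51.2% of their 50-base transcript stretches with Oas1g and Ifit3b, so reads could have been split or lost between these copies.

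**Figure D4:**
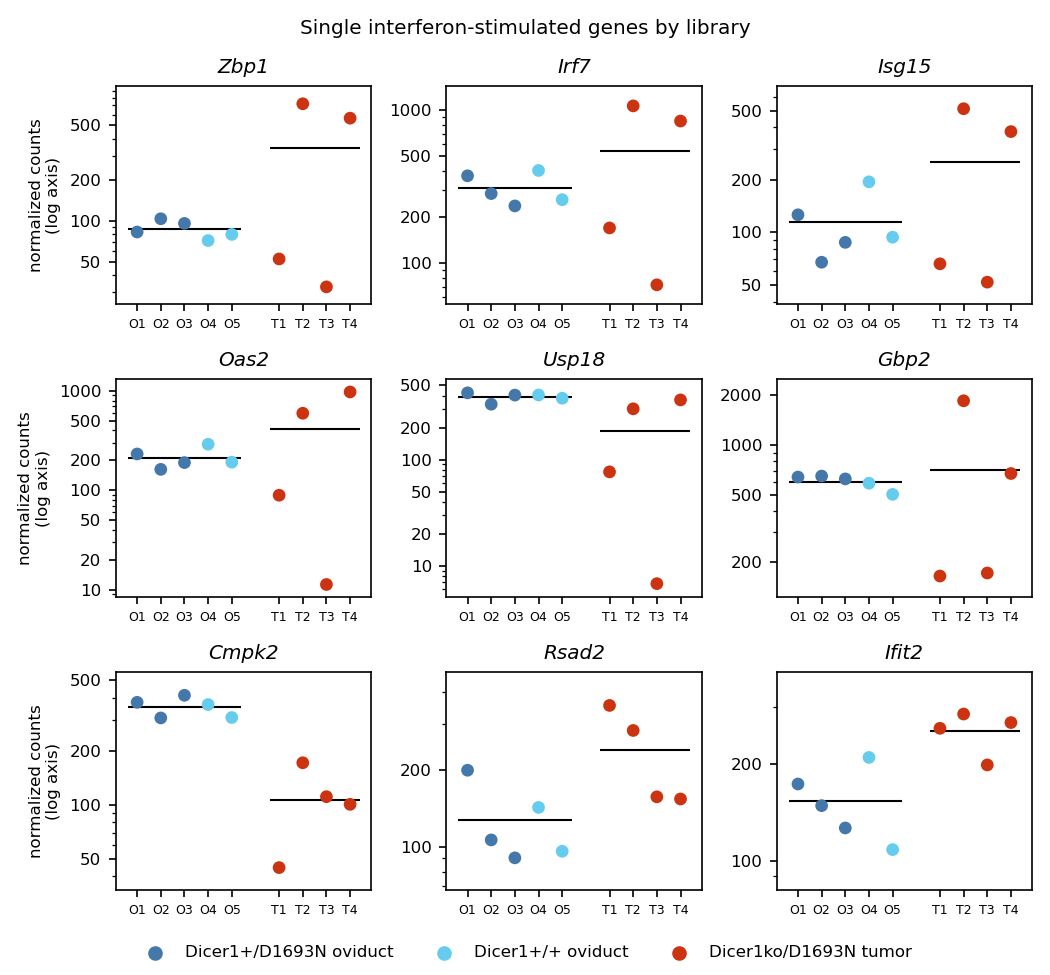
Dot plots of normalized counts (vertical axis, log scale, a different range in each panel) by library (O, oviduct; T, tumor) for 9 interferon-stimulated genes; points are libraries colored by genotype and lines are group means. Zbp1, Irf7, Isg15, Oas2 and Gbp2 have tumors 2 and 4 above and tumors 1 and 3 below all oviducts, while all 4 tumors are below the oviducts for Cmpk2, and Rsad2 and Ifit2 do not split this way.

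Of the other antiviral effectors, Bst2, which encodes the membrane protein tetherin that holds budding virus, had 1082, 748, 702, 1639 and 1879 normalized counts in the oviducts and 809.9, 1934, 301 and 1401 in the tumors. Only tumor 2 was above and only tumor 3 below every oviduct, and the oviducts themselves spread widely (log2 change -0.30 ± 0.50, SE, adjusted p = 0.691). Eif2ak2, which encodes the RNA-activated kinase PKR that halts translation, had 579, 434, 616, 634 and 744 in the oviducts and 388, 609.8, 510 and 1039 in the tumors. Tumor 4 was above and tumor 1 below every oviduct, with a mean change of 0.01 ± 0.26 (log2, SE, adjusted p = 0.987). Adar, whose product edits adenosine in double-stranded RNA, was at 519.6, 829, 520.2 and 1101 in the tumors and 647 to 834 in the oviducts, the same order of tumors within a narrower range. Adar shares 14.4% of its 50-base stretches with Chrnb2, which lies on the opposite strand, and whether counting used strand is not given in the sources used here.

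ISG15 is a ubiquitin-like protein that is attached to others and removed again by USP18, which also restrains the type I receptor. Isg15 had 126, 67.4, 87.6, 195 and 93.8 normalized counts in the oviducts and 66, 512, 51.8 and 379 in the tumors. Tumors 2 and 4 were above every oviduct, and tumors 1 and 3 below (log2 change 0.57 ± 0.60, SE, adjusted p = 0.5). Usp18 had 425, 332, 405, 406 and 378 in the oviducts and 76.7, 301, 6.8 and 365 in the tumors. Unlike Isg15, its high tumors did not pass the oviducts, and tumor 3 was far below all other libraries. The Usp18 change of -1.66 ± 0.69 (log2, SE) was the most negative of the 43 genes but had an adjusted p of 0.0929. Trim25, a ubiquitin ligase that acts on RIG-I, had 958, 818, 861, 1012 and 856 in the oviducts and 886, 1005, 807 and 1447 in the tumors. Tumor 4 was above every oviduct, tumor 3 was just below, and the others were within the oviduct range (0.17 ± 0.17, log2, SE, adjusted p = 0.498). Herc6, the ISG15 ligase of mouse, was at 94.2, 215, 96.8 and 171 in the tumors and 144 to 250 in the oviducts, with no tumor above. It shares 12% of its 50-base stretches with Gm45193.

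The 9 GTPases of the IRG and GBP families attack the membranes around intracellular microbes and respond strongly to interferon gamma. Tumor 2 was the highest tumor in 9 of 9, by a median of 1.28 log2 units over tumor 4, against 18.7% of all genes with tumor 2 highest. In the 8 Ifit and Oas genes tumor 4 was highest in 5 and tumor 2 in 3, with a median difference of -0.03. Gbp2 had 642, 651, 626, 589.5 and 506 normalized counts in the oviducts and 164, 1836, 171 and 674 in the tumors. Tumor 2 was far above every oviduct, tumor 4 was just above, and tumors 1 and 3 were below (log2 change -0.43 ± 0.59, SE, adjusted p = 0.625). Igtp had 244, 237, 294, 211 and 209.9 in the oviducts and 48.6, 659, 142 and 259 in the tumors. Only tumor 2 was above every oviduct, and tumor 4 was within their range (-0.27 ± 0.52, log2, SE, adjusted p = 0.734).

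The other GTPases show how tumors 2 and 4 parted. Iigp1 was at 257, 1059.5, 431 and 393 normalized counts in tumors 1 to 4, Gbp4 at 213, 782, 262 and 210.3 and Tgtp1 at 8.7, 135, 9.0 and 22.1, against 243 to 364, 469.7 to 862 and 17.9 to 40.4 in the oviducts. Tumor 2 was highest in each, while tumor 4 ranked below tumor 3 for Iigp1 and lowest for Gbp4. The rest, Ifi47, Irgm1, Gbp3 and Gbp7, had tumors 2 and 4 both above every oviduct, at 525 to 1304 normalized counts in tumor 2 and 506 to 815 in tumor 4. Tgtp1 shares 79.4% of its 50-base stretches with Tgtp2, and exons of Gbp4 overlap Gbp8 and Gbp9, so these 2 values are uncertain. Igtp shares 11.8% of its stretches with Irgm2.

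The last group holds 8 genes of mixed or less known role, all with tumors 2 and 4 as the highest tumors and none called. Ifi27, a mitochondrial and nuclear membrane protein gene, had 1056, 1018, 1096, 1504 and 1363 normalized counts in the oviducts and 351, 646, 309.6 and 1499.7 in the tumors. Tumor 4 reached the top of the oviduct range and the other 3 tumors were below it (log2 change -1.03 ± 0.39, SE, adjusted p = 0.0681). Ifi35 had 309, 303, 294, 309.7 and 387 in the oviducts and 124, 409.9, 152 and 406 in the tumors. Its tumors 2 and 4 passed the highest oviduct by little and tumors 1 and 3 were well below (-0.39 ± 0.33, log2, SE, adjusted p = 0.41). Sp100, which encodes a protein of nuclear bodies that restrict viral DNA, had 1101, 1044, 1067, 968 and 734 in the oviducts and 415, 796, 253 and 795 in the tumors. Tumors 1 and 3 were below every oviduct and tumors 2 and 4 within their range, a change of -0.90 ± 0.31 (log2, SE) at an adjusted p of 0.048, short of the log2 minimum of 1. Ifi44, Xaf1, Rtp4, Parp9 and Parp14 had changes of -0.19 to 0.42, and Parp9 shares 7.71% of its 50-base stretches with Dtx3l on the opposite strand.

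The calls depend on which tumors enter. Without tumor 4 the genes called lower numbered 7 (Ifih1, Tlr3, Oasl2, Cmpk2, Usp18, Ifi27 and Sp100), with 13.3% of all genes called lower. Without tumor 2 they numbered 3 (Cmpk2, Gbp4 and Sp100), with 11.9% of all genes. Leaving out any other library left Cmpk2 as the call. With weights for library quality Zbp1 was called higher as well (log2 change 1.59, adjusted p = 0.0474).

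Of the genes on the pathway lists, Socs3 and Herc3 were called between tumors and oviducts, while 18.7% of all genes were called in either direction. Of 12 interferon ligand genes listed, 3 were in the table and none was called. Ifne had 29, 23.2, 31.8, 73.1 and 24.6 normalized counts in the oviducts and 35, 106, 3.4 and 83.1 in the tumors. Again tumors 2 and 4 were above every oviduct, and tumor 3 was at the limit that a count of 0 allows (log2 change 0.19 ± 0.52, SE, adjusted p = 0.818). Ifng, the gene of interferon gamma, was at 21.6 in tumor 2, at 4.5 in tumor 3 and without a read in tumors 1 and 4, against 0 to 4.5 in the oviducts, and its part in the levels of the 43 genes was not tested. Ifnk was at 0 to 4.5 in all libraries. The other 9 listed ligand genes, Ifnb1 among them, are not analysed here.

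None of the 6 receptor genes was called. Ifnar1, a chain of the type I receptor, was at 986, 1112, 1112 and 1232 normalized counts in the tumors and 684 to 772 in the oviducts. All 4 tumors were above all oviducts, but the change of 0.61 ± 0.11 (log2, SE, adjusted p = 0.00239) was below the minimum of 1. Ifnar2, Ifngr1, Ifngr2, Ifnlr1 and Il10rb had log2 changes of -0.58 to 0.73 with adjusted p-values of 0.0652 to 0.588. Jak1 had a change of 0.46 ± 0.14 (log2, SE, adjusted p = 0.0265), Jak2 of 0.35 ± 0.14 (adjusted p = 0.0848) and Tyk2 of 0.11 ± 0.20 (adjusted p = 0.724), none called.

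No gene was called among 16 genes that induce interferon and 4 other IRF factors. In the first list 11 of 16 genes had tumors 2 and 4 as the 2 highest tumors, against 22.1% of all genes. Tmem173, which encodes the DNA-sensing adaptor STING, was at 266, 1191, 304 and 1492 normalized counts in tumors 1 to 4. It was at 221 to 302 in the oviducts. Other genes of the list differed: Mb21d1 was highest in tumor 3 (19.4, 101, 129.5 and 67.3) and Traf6 in tumor 1 (710, 394, 481 and 422). Mavs was below every oviduct in all 4 tumors (278, 479, 343 and 485 against 592 to 666.5). Of 14 genes that restrain the response, Socs3, an inhibitor of JAK signaling that STAT3 also induces, rose (1300.3, 4261, 1200.2 and 1700.5 in the tumors against 169.7 to 290.2 in the oviducts, log2 change 2.85 ± 0.34, SE, adjusted p = 0.000154). Its 4 tumors were all above the oviducts. Of 3 other genes listed with the ISG15 cascade, Herc3 fell (162, 123, 129.5 and 182 against 288 to 350.5, -1.01 ± 0.16, log2, SE, adjusted p = 0.00102). A part of Herc3 in ISG15 conjugation is not shown here, and the ISG15 ligase of mouse is Herc6, given above. Of 37 further interferon-stimulated genes found from a second list of 40, Lgals9, which encodes galectin-9, rose (1.01 ± 0.30, log2, SE, adjusted p = 0.0274) and the GTPase gene Gbp8 fell (-3.39 ± 0.47, log2, SE, adjusted p = 0.000426). Gbp8 was at 605 to 2631.5 normalized counts in the oviducts, highest in oviduct 5, and at 46.2 to 199.9 in the tumors. Its exons overlap Gbp4, so the Gbp8 values are uncertain as well. For 33 of the 37 genes, tumors 2 and 4 were the 2 highest tumors, against 22.1% of all genes.

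Cell type markers differed among the tumors as well. In bulk tissue, fewer cells of a type and less RNA per cell cannot be told apart. For all marker lists below, the shares over all genes were 6.53% called higher, 12.1% called lower and 22.1% with tumors 2 and 4 as the 2 highest tumors. Of 15 macrophage markers 10 were called higher, and for 14 of the markers tumors 2 and 4 were the 2 highest tumors. Their summed normalized counts were 4778 to 7552 in the oviducts and 21886, 37266, 7781 and 59717 in tumors 1 to 4. The sum in tumor 1 was above every oviduct, with Lyz2 alone at 9786. Cx3cr1 was below every oviduct in tumor 1 (21.4 against 134 to 196). Csf1r and Aif1 were within the oviduct range there, and the other macrophage markers were above it. Of 6 B and plasma cell markers none was called, all 6 had tumors 2 and 4 highest, and sums were 228 to 4300 in the oviducts and 1145, 7380.1, 157 and 1556 in the tumors.

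Of 13 T and NK cell markers none was called, 8 had tumors 2 and 4 highest, and sums were 80.2 to 457 in the oviducts and 185, 894, 98.0 and 266 in the tumors, highest in tumor 2. Of 8 dendritic cell markers none was called and 4 had tumors 2 and 4 highest. Their sums were 1301 to 1851 in the oviducts and 3832, 2587, 2591 and 2103 in the tumors, mostly from Tcf4 (3286, 1834, 2264 and 1450.2 in the tumors), which other cell types also express. The mean log2 difference of the 8 markers from the oviducts ran in another order, -0.31, 0.35, -1.11 and 0.07 in tumors 1 to 4. Siglech, a marker of the plasmacytoid dendritic cells known for making type I interferon, was at 6.8, 71.5, 0 and 49.4 normalized counts in the tumors. It was at 31.3 to 84.1 in the oviducts. Ccr9 of the same list was at 1, 22.7, 0 and 6.3 against 8.6 to 30.8, so tumor 4 was below every oviduct there. Xcr1 was also below every oviduct in tumor 4 (7.4 against 10 to 18.9). Zbtb46 was highest in tumor 3 (178, 277, 288 and 128), and Itgax was low in tumor 3 alone (326, 320.2, 22.5 and 399). Of 5 fat cell markers none was called, and sums were 1149 to 10182 in the oviducts and 88.4, 51.1, 29.3 and 32693 in the tumors, so tumor 4 stood above and the other 3 tumors below every oviduct. Of 8 endothelial markers 7 were called higher, and in none were tumors 2 and 4 the 2 highest. The ciliated-cell markers were called lower in 8 of 8 and the mesenchymal markers higher in 5 of 9. Tumors 2 and 4 were the 2 highest tumors in 0 and 2 of these. Of 10 epithelial markers 1 was higher and 2 were lower, and 6 had tumors 2 and 4 highest. No marker of these lists was at 0 in all libraries. The part of these cell type differences in the interferon-stimulated gene levels was not tested.

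**Figure D5:**
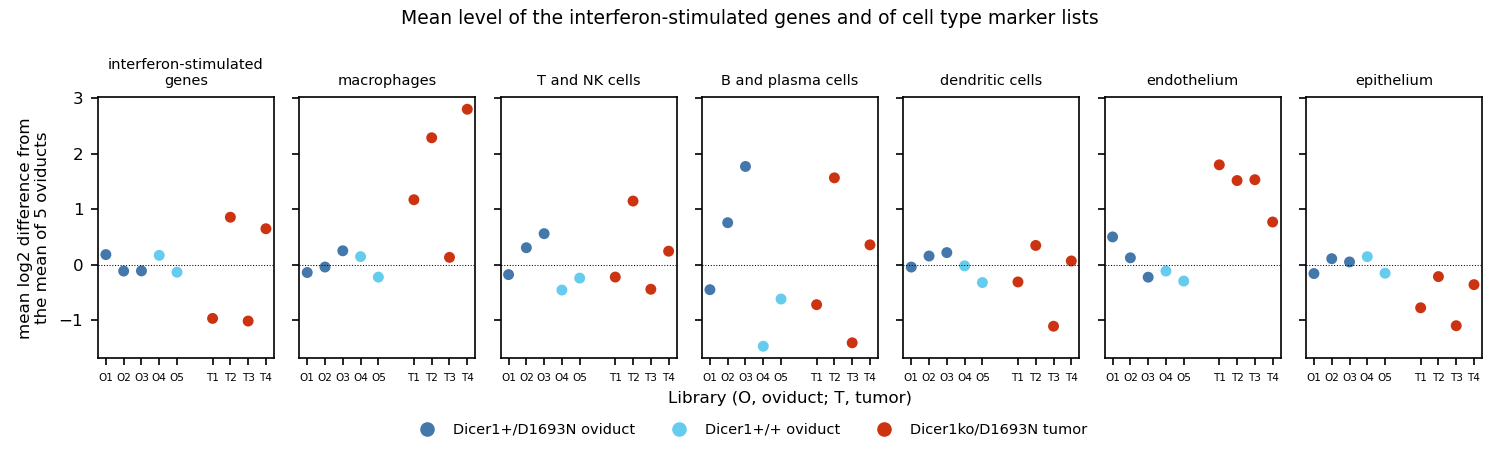
Dot plots of the mean log2 difference from the mean of 5 oviducts (vertical axis) by library (O, oviduct; T, tumor) for the 43 interferon-stimulated genes and 6 lists of cell type markers; points are libraries colored by genotype. The interferon-stimulated genes average 0.86 and 0.65 in tumors 2 and 4 but -0.97 and -1.01 in tumors 1 and 3. Macrophage markers average 1.17, 2.29, 0.13 and 2.80 in tumors 1 to 4.

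The oviducts allow a comparison of Dicer1+/D1693N with Dicer1+/+, 3 against 2 libraries, in a fit of all 9 libraries by genotype. None of the 43 genes was called and 0 had an unadjusted p under 0.05, against 0.0206% called and 2.75% at that p among all genes. That fit estimates 1 spread from oviducts and tumors together. The 43 genes had a median SD of 1.02 (log2) over the tumors and 0.244 over the oviducts. Its p-values for the oviduct genotypes therefore depend largely on the spread among tumors, and their absence under 0.05 says little about the oviducts. With limma-voom 0 were called, and in a fit of the oviducts alone 7 of 43 had an unadjusted p under 0.05, against 14.7% of all genes, and that fit called 0 of the 43 and 0 of all genes. Differences, Dicer1+/D1693N minus Dicer1+/+, ran from -1.06 for Bst2 to 0.47 for Tgtp1, 22 positive and 21 negative, with a median of 0.01. In the fit of all 9 libraries Bst2 had the lowest unadjusted p of the 43, 0.124. It had 1082, 748, 702, 1639 and 1879 normalized counts in oviducts 1 to 5 as above. Its Dicer1+/D1693N oviducts were all below the Dicer1+/+ oviducts. This was not particular to Bst2: Gbp4 and Ifi27, among others, separated the same way. For Gbp2 and Gbp7, among others, the Dicer1+/D1693N oviducts were all above. The share of all genes that separate by genotype was not counted. Among the 5 oviducts, oviduct 1 (Dicer1+/D1693N) was highest in 15 of the 43 genes and oviduct 4 (Dicer1+/+) in 14, against 18.2% and 21.5% of all genes.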

How the data were processed

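The 9 libraries were sequenced from poly-A RNA. Per the labels' protocols RNA was extracted with a miRNeasy kit, purified with oligo-T beads, and reverse transcribed from random hexamers. The submitters' processing notes name FastQC 0.11.5, STAR 2.5.3a, HTSeq and the build GRCm38 (mm10). The deposited values are on a log2 scale, and which transformation the authors used, the annotation and the strandedness are not given in the sources used here. The values have the form of a variance-stabilizing transformation with a floor of 3.427. Undoing it returned whole reads (within 0.05 reads) in 100% of values, and no gene had under 10 reads over the 9 libraries. For genes with few reads, log2 differences on this scale are smaller than the true change.

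The 2 tissue groups were compared on the log2 values of all 19435 genes with limma 3.58.1 in R 4.3.3 (trend in the prior variance, two-sided), and the oviduct genotypes in a fit of 3 groups. Normalized counts are the recovered reads over the size factor of each library. Scripts were tested on simulated data. Values in every library were printed for called genes, the 3 largest changes in each direction, the 3 widest ranges over the tumors and the 2 highest mean levels of each role, and other genes were named after their values were seen. The 43 genes and all other lists were chosen with earlier results of these data known. Alternatives were limma-voom on the recovered reads, other scalings, filters and controls, weights for library quality, a replicate block and leaving out each library. Scaling to library totals, quantile normalization and median centring for the split among tumors were added after seeing the data. Gene positions and shared transcript stretches come from GENCODE M21 on GRCm38, and promoters from RefSeq. A gene of the pathway lists is not reported here.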

Additional observations from a re-analysis of the deposited data

Results flagged for a closer look

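In each of the 43 genes, the highest and lowest library of the 5 oviducts and of the 4 tumors was compared with its nearest neighbor by Dixon's ratio at the 95% level. Of the 86 groups, 3 had a library apart (3.49%), and chance alone gives about 1 in 20. Oas3 was apart in oviduct 1, the highest oviduct, at 6.31 on the deposited log2 scale with the next oviduct at 5.69. Gbp4 was apart in tumor 2, the highest tumor, at 9.65 with the next tumor at 8.15. Ifi35 was apart in oviduct 5, the highest oviduct, at 8.67 with the next at 8.37.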

How the results depend on the processing

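The call of Cmpk2 held under every alternative run. Against 0 genes called higher and 1 lower, the counts became 1 higher (Zbp1) and 1 lower with weights for library quality, 1 higher and 2 lower with no minimum change, and 2 lower with limma-voom on recovered reads; leaving out each library gave 1 to 7 lower and 0 higher. With a replicate block 0 genes were higher and 1 was lower. No pairing of libraries by replicate number was visible: deviations of same-numbered libraries correlated by -0.089 to 0.117 in 4 pairs and those of other pairs by -0.146 to 0.139. A weak link could be missed with 4 such pairs. The median of all genes was -0.048 as deposited, 0.078 after quantile normalization and 0.088 after median centring. Tumors 2 and 4 were the 2 highest tumors in 39 genes as deposited, 38 after quantile normalization, 38 after median centring and 39 after scaling to library totals, and the counts on both sides of all oviducts were 20, 14, 15 and 18. On that scale tumor 4 was below all oviducts in 5 genes instead of 2. The shares of all genes, given above for the deposited values, were not counted under the other scalings.

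Of the 23 genes with values in every library, signs of uncalled changes reversed in 11 of 230 other settings: Oas2 at 0.042 (quantile normalization), 0.001 (median centring) and 0.621 (library weights), Irf9 at 0.171, Bst2 at 0.360, Gbp2 at 0.257 and Igtp at 0.275 (library weights), Oas3 at -0.027 (limma-voom), Ifit3 at -0.007 (replicate block), Bst2 at 0.128 (Dicer1+/D1693N controls) and Eif2ak2 at -0.198 (Dicer1+/+ controls). Leaving out each library gave -0.884 to 0.822 for Oas2, -0.097 to 1.556 for Oas3, -0.037 to 0.369 for Ddx58, -0.495 to 0.185 for Irf9, -0.266 to 0.464 for Ifit3, -0.656 to 0.212 for Bst2, -0.253 to 0.206 for Eif2ak2, -0.004 to 0.272 for Trim25, -1.094 to 0.015 for Gbp2 and -0.825 to 0.279 for Igtp. Causes of these reversals were not tested. With 4 tumors on 2 sides of the oviducts, a mean change of these genes has a wide error, and 4 of the 43 genes have under 25 reads in some library.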

Other observations

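The split of tumors 2 and 4 above and tumors 1 and 3 below every oviduct was held by 233 genes. Of these, 20 are interferon-stimulated genes described above, 14 belong to the pathway and further interferon-stimulated lists, none to the cell type lists and 199 to no list. The lists do not hold every interferon-inducible gene, so the 199 cannot be read as unrelated to interferon. Ranked by the smaller of the distances above and below the oviducts, 3 of the first 20 were among the 43 genes (Oas1a, Oas2 and Ifi47). The first was Ms4a4c, a gene of the Ms4a membrane protein family, with 1.9, 130.6, 0 and 124.1 normalized counts in tumors 1 to 4 and 18.7 to 39.1 in the oviducts. Mnda, related to the interferon-inducible Ifi200 family, had 23.3, 153.3, 10.1 and 331.3, against 54.7 to 74.9 in the oviducts. C5ar2, a receptor for complement fragments, had 1.0, 68.1, 0 and 76.8, against 6.7 to 23.9. St14, an epithelial membrane protease gene, had 573, 1921, 570 and 3039, against 1114 to 1225. Cfi, which encodes complement factor I, had 214, 907, 72.1 and 1627, against 522.5 to 631. These genes were chosen after their values were seen, and no test was made of them.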
